A study of Mus musculus with 20 samples.

Results

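The RNA that came down with Flag-tagged Tet1 from mouse embryonic stem cells (ESCs) was compared with input RNA of the same line, gene by gene. The data are 4 libraries of 1 line, 2 immunoprecipitates (IP) and 2 inputs, out of 20 libraries in the whole RNA immunoprecipitation (RIP) experiment. In this line CRISPR knock-in placed a Flag, HA and Twin-Strep tag at the C-terminal end of the endogenous Tet1 of wild-type ESCs, which were grown in serum and leukemia inhibitory factor on gelatin. The cells are a picked clone, as are the cells of the other 16 libraries, which carry the same tag on Tet2 or on Tet2ΔRBD, a Tet2 without its RNA-binding domain. No treatment was given. Each IP was paired with the input that carries the same replicate number in the labels; the pairing rests on that number. The methods describe the RIP-Seq as done at least in biological duplicate, whereas the labels do not say which replicates are separate cultures. The p-values below thus measure only how the ratio of IP to input varied between pairs of a line. That spread was pooled over all 20 libraries of the Tet1, Tet2 and Tet2ΔRBD lines. Tet1 gave 2 of the 10 pairs, so most of the spread was estimated from the other lines. The IPs were made from cytoplasmic extract and the methods give the input as total RNA of the cells, so an effect of the cell fraction and an effect of the IP cannot be told apart. Control reactions with IgG were not analysed here, so RNA held by the beads or the antibody was not subtracted.

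Genes were kept as members of the comparison when their mean input level was at least 5 TPM, a share of the library corrected for transcript length and scaled to a fixed total. This left 8374 of 23284 genes, of which 8348 also passed the count filter of the test. The last genes inside the limit were Map3k12 and H19, each at a mean input of 5 TPM with mean IP levels of 5.47 and 2.46 TPM. Just outside it lay Slc30a7 and 2010109K11Rik, both at 4.99 TPM in the input and at 3.84 and 3.83 TPM in the IP. The enrichment of a gene in a pair is given as log2((TPM + 1) in IP / (TPM + 1) in input), which understates the change of genes near the limit. TPM are shares of a library, so a value above 0 says that the gene took a larger share of the IP than of the input, not that more of its RNA was recovered.

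Tet proteins are dioxygenases that oxidise 5-methylcytosine to 5-hydroxymethylcytosine, first known from DNA and also found in RNA. Tet1 and Tet2 are the Tet proteins that ESCs express, and Tet1 has a DNA-binding CXXC domain. A RIP enriches RNAs that are held directly or through other proteins, and its input shows how common each RNA was to begin with. In these libraries the markers were those of the labelled cell type: all 10 ESC markers were above the 5 TPM limit, with Dppa5a, an ESC-specific RNA-binding protein gene, at 11185 TPM in the first input. Summed over the 10 markers the inputs held 17898 and 17931 TPM and the IPs 15799 and 14934 TPM. The 8 fibroblast markers summed to between 15.4 and 17.8 TPM and the 5 mesoderm markers to between 5.07 and 5.91 TPM. Primitive endoderm markers summed to between 42.0 and 47.6 TPM, and trophectoderm markers to between 23.2 and 28.9 TPM, with 1 of 6 at 0 in both inputs. Neural markers summed to between 12.2 and 14.6 TPM, with 1 of 5 at 0 in both inputs, and the 4 primed epiblast markers to between 99.5 and 125.3 TPM, mostly Dnmt3b. Depth was even, between 22539260 and 25518994 expected counts a library.

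Most of the mRNAs enriched at least 2-fold in both pairs had an A-rich coding sequence. The 60 coding bases with the most A within a single exon are printed for the first 5 coding genes of the enriched end and for the first 3 of the depleted end, to show what the base composition described further on looks like. All 8 windows are exonic and coding, were read from NCBIM37 (mm9) on the strand of the gene, and run 5′ to 3′ with every A in capitals.

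Pabpc1, chr15:36535544-36535603, minus strand, 28 A in 60 bases: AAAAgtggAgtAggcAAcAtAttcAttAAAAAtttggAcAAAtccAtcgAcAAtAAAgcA
Eif2a, chr3:58356544-58356603, plus strand, 32 A: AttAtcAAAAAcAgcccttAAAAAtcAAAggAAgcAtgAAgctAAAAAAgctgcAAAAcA
Ube2l6, chr2:84649230-84649289, plus strand, 20 A: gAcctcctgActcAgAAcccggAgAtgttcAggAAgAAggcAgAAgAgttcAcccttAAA
Gpbp1, chr13:112226711-112226770, minus strand, 32 A: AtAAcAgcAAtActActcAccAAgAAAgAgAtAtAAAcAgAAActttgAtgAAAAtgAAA
Morc1, chr16:48514748-48514807, plus strand, 28 A: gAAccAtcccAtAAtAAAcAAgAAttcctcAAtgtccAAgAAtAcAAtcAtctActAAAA
Plac8, chr5:100985510-100985569, minus strand, 19 A: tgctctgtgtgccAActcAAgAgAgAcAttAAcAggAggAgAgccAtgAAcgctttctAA
Ube2n, chr10:95004350-95004409, plus strand, 25 A: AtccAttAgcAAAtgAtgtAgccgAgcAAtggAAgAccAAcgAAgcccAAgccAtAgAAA
Dazap2, chr15:100447347-100447406, plus strand, 18 A: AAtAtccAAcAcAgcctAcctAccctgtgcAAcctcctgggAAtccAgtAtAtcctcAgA

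Each window was picked for its A content, and a longer coding sequence offers more windows. Coding length was 339 bases for Plac8 and 507 for Dazap2, against 1911 for Pabpc1 and 2853 for Morc1. The A counts thus mix composition with length. The windows also show exceptions. Ube2l6 was enriched with 24.2% A over its 462-base coding sequence, and Ube2n was depleted with 30.5% A over 459 bases. Over the whole coding sequences the A content was 27.7% for Pabpc1, 32.3% for Eif2a, 34.9% for Gpbp1 and 31.8% for Morc1, against 22.1% for Plac8 and 20.5% for Dazap2. The median over all 7966 members with an annotated coding sequence was 25.1%.

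Over all 8374 members the IP resembled the input closely. The median log2 ratio was 0.04 in the first pair and 0.10 in the second (mean 0.07 ± 0.04, SD, n = 2 pairs), and the middle of the distribution lay between quartiles of -0.19 and 0.26 in the first pair and of -0.15 and 0.34 in the second. In the pairs, 89.2% and 84.9% of members were within 1.5-fold of their input. Above input in both pairs were 4246 members (50.7%), and below it in both pairs 2969 (35.5%). The centre depends on the scale: with TMM-scaled counts, the scaling of the test, the median became -0.07, so levels of gene groups are given below as differences from the median of all members. At least 2-fold enrichment in both pairs was seen for 204 members (2.44%), and at most 0.5 times the input in both pairs for 23 (0.275%).

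In edgeR's quasi-likelihood test over expected counts, with a block for each pair and Benjamini-Hochberg adjustment over 13710 genes, 111 members were higher in the IP (1.33% of the 8348 tested) and 397 were lower (4.76%). All of them had the same direction in both pairs. The 2 classes differed in size: the median fitted log2 ratio was 1.54 for the higher members and -0.75 for the lower ones. Over all 13710 genes tested, 373 were higher and 436 lower. The limit of 5 TPM was set on the input, and of the called genes below it 262 were higher and 39 lower. The shares of members called in each direction thus depend on that limit. With limma on log2(TPM + 1), which changes both the test and the scale, 186 members were higher and 138 lower. Without the block for pairs the same test called none (840 genes at an unadjusted p under 0.05), and it called none when Tet1 pair 1 or 2 was left out (1625 and 1113 at an unadjusted p under 0.05). It called 47 members higher and 170 lower without Tet2 pair 3, 47 and 218 without Tet2 pair 4, 49 and 203 without Tet2ΔRBD pair 3, and 270 and 702 without Tet2ΔRBD pair 2. Among the called genes named by rule, Trnt1, Kif20a, Tug1, Zfp277 and Rpa3 lost the call without any one of the first 3 of these pairs. The gene 2610019E17Rik lost it without either of the first 2. Rpa3 also lost it without Tet2 pair 1, and Mir17hg with limma on log2(TPM + 1). The other called genes named below were not followed gene by gene. Without Tet2 pair 3, 47 of the 111 higher members and 169 of the 397 lower ones kept the call. With limma on log2(TPM + 1), 107 and 132 kept it.

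**Figure D1:**
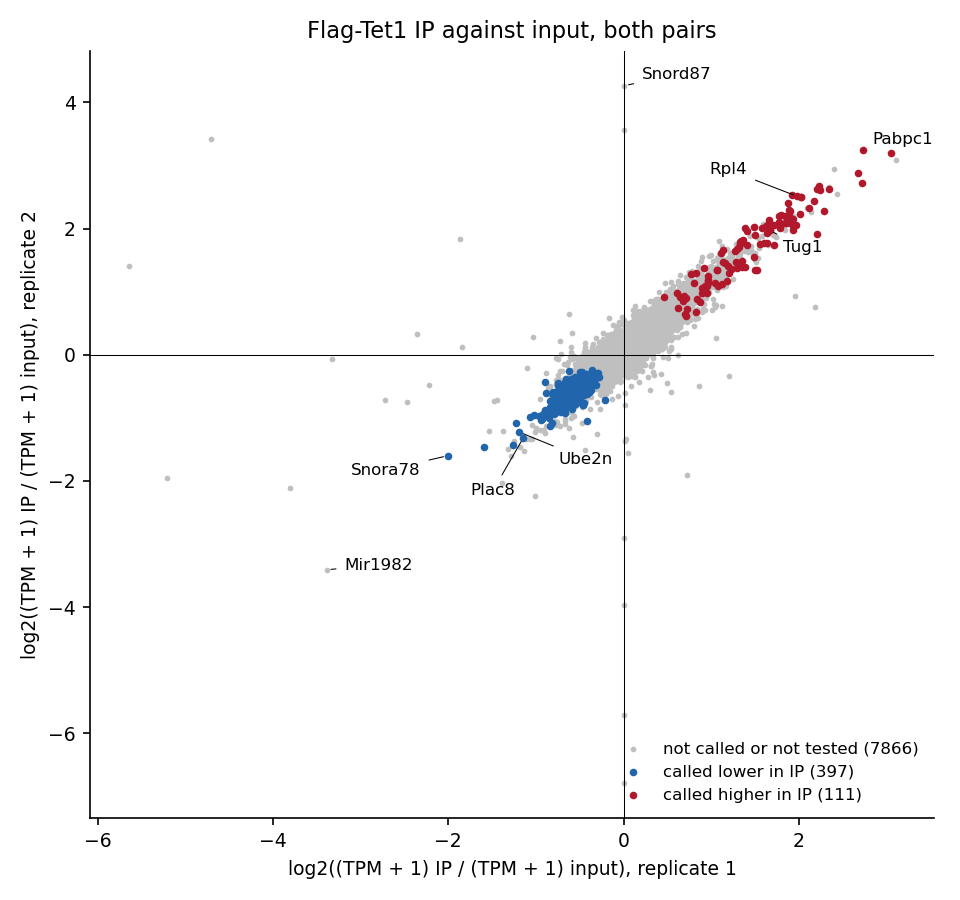
Each point is 1 of the 8374 genes with a mean input of at least 5 TPM, with log2((TPM + 1) IP / (TPM + 1) input) of replicate 1 on the x axis and of replicate 2 on the y axis. The 111 genes called higher and the 397 called lower lie near the diagonal, and the points far from the diagonal are not called or were not tested.

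Of the 10 genes named by rule as highest, Pabpc1, the cytoplasmic poly(A)-binding protein (chr15:36525416-36538728, minus strand), stood at 146 and 108 TPM in the inputs and at 976 and 1032 TPM in the IPs. Both IPs lay far above both inputs, and the fitted log2 ratio was 2.85 ± 0.43 (SE; edgeR adjusted p = 0.019). Eif2a, an initiation factor (chr3:58329743-58361423, plus strand), was at 11.1 and 8.59 TPM in the inputs and at 75.9 and 69.4 TPM in the IPs (2.75 ± 0.56, edgeR adjusted p = 0.026). Trnt1, the enzyme that adds CCA to tRNA ends, was at 8.48 and 4.5 TPM against 35.04 and 30.95 TPM in the IPs. Nol7, a nucleolar protein gene, was at 7.72 and 5.42 TPM against 34.6 and 35.3 TPM. For each of these 4 genes the groups did not overlap.

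Of the other 6, Gm20362 had the highest fitted ratio (3.01 ± 0.67, edgeR adjusted p = 0.033), from 39.1 and 31.8 TPM to 331 and 301 TPM. Ube2l6, a conjugating enzyme for the ubiquitin-like protein ISG15, went from 12.6 and 11.3 TPM to 88.2 and 80.1 TPM. Fbxo5, the anaphase-promoting complex inhibitor Emi1, was at 13.03 and 9.14 TPM in the inputs and 63.6 and 61.5 TPM in the IPs. Yme1l1, a mitochondrial protease, Gpbp1, a transcriptional regulator, and Morc1, a germline gene silencer, had fitted log2 ratios of 2.46, 2.52 and 2.48. Every one of the 10 had both IPs above both inputs. The rule picked extreme called genes with 1 sign in both pairs. Separation of IPs and inputs is therefore no added support, here and for the 10 lowest.

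Of the 10 lowest, 4 had no coding sequence matched. Snora78, a box H/ACA small nucleolar RNA (chr17:24856621-24856748, minus strand), was at 25.1 and 19.9 TPM in the inputs and at 5.49 and 5.88 TPM in the IPs (-2.11 ± 0.41, edgeR adjusted p = 0.023). Its effective length in the files was only 89.4 bases, and it can share reads with the host gene around it. Mir17hg, the noncoding host of the miR-17 cluster (chr14:115442101-115445949, plus strand), was at 24.9 and 18.98 TPM against 10.0 and 8.43 TPM in the IPs. 2610019E17Rik and D7Ertd143e had fitted log2 ratios of -1.71 and -1.56. For these genes too, both IPs lay below both inputs.

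The 6 depleted genes that encode proteins had coding sequences of at most 996 bases. Plac8, a small cysteine-rich protein gene, was at 93.0 and 88.7 TPM in the inputs and 41.5 and 34.95 TPM in the IPs (-1.40 ± 0.20, edgeR adjusted p = 0.019). Ube2n, the enzyme for lysine-63 ubiquitin chains, was at 122 and 110 TPM against 52.8 and 46.5 TPM. Gng5, a G protein gamma subunit, was at 683 and 669 TPM against 335 and 343 TPM. The groups did not overlap for any of them. Dazap2, Snapin, a SNARE-associated protein gene, and Calcoco2, an autophagy receptor gene, had fitted log2 ratios of -1.20, -1.18 and -1.15.

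**Figure D2:**
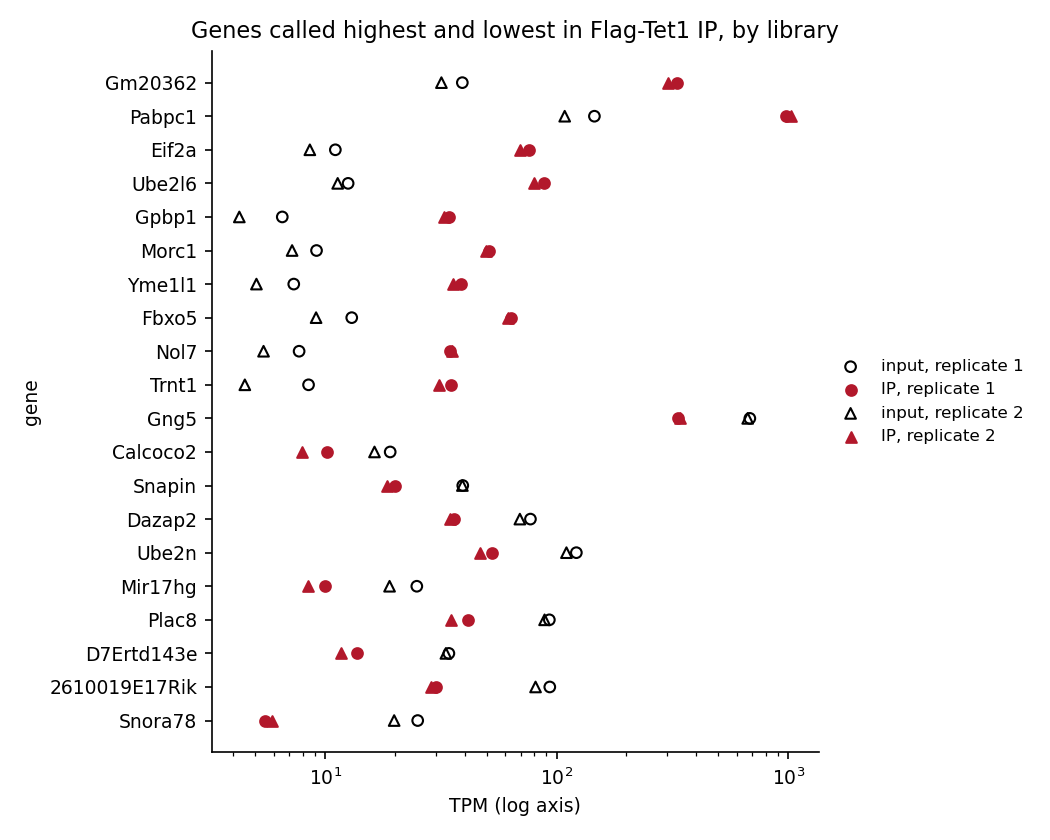
TPM on a log axis in each of the 4 Tet1 libraries (open, input; filled, IP; circles, replicate 1; triangles, replicate 2) for the 10 genes called highest (top) and the 10 called lowest (bottom). In each of the 20 genes both IP points lie on the same side of both input points, which the choice of called genes with 1 sign in both pairs favours.

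The Tet mRNAs themselves were not called. Tet1 stood at 17.3 and 13.6 TPM in the inputs and at 23.8 and 23.3 TPM in the IPs, with a fitted log2 ratio of 0.47 ± 0.28 (edgeR adjusted p = 0.34). Tet2 was at 6.77 and 4.96 TPM against 9.66 and 9.47 TPM (0.57 ± 0.27, edgeR adjusted p = 0.23), and Tet3, at 1.55 and 1.27 TPM in the inputs, was below the limit. The list of cytosine methylation writers, erasers and readers, 14 members with Dnmt1 and the RNA methyltransferase Nsun2 among them, had no member called. Its median lay 0.11 and 0.10 above that of all members in the pairs, with Nsun2 highest (148 and 140 TPM against 225 and 225 TPM) and Dnmt3b lowest (109 and 110 TPM against 84.9 and 85.8 TPM).

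In all, 31 lists of related genes, the one above included, were described by their medians and by the calls among their members. Of these, 14 lay above the median of all members in both pairs and 11 below it in both pairs. Together the lists held 1228 members, 23 of them called higher (1.91% of those tested, beside 1.33% over all members) and 51 called lower (4.24%, beside 4.76%). The lists were made with earlier results of these data known, and no test was run on them.

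Kinesins, the microtubule motors, had the highest median, 0.55 and 0.53 above that of all members in the 2 pairs. Of 11 members, 9 were above input in both pairs, 2 were called higher and none lower. Kif20a, a cytokinesis motor, was at 18.3 and 15.8 TPM in the inputs and 65.8 and 69.9 TPM in the IPs (1.84 ± 0.45, edgeR adjusted p = 0.041). Kif23, another cytokinesis motor, had a fitted log2 ratio of 1.43. Kinetochore and condensin subunits, which also act in mitosis, lay only 0.08 and 0.07 above all members, but 3 of 38 were called higher: Nuf2, of the NDC80 complex, at 2.00, the checkpoint kinase Bub1 at 1.73, and Cenph at 1.09. None was called lower. The share of members called higher was 18.2% for kinesins and 7.89% for kinetochore genes, beside 1.33% over all members.

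Genes for making and using ribosomes lay on both sides. Cytosolic aminoacyl-tRNA synthetases, which charge tRNAs, were the most uniform list: 19 of 20 were above input in both pairs, none was below it in both, and the median was 0.31 and 0.30 above that of all members. None was called, and the highest, Eprs, went from 39.8 and 34.2 TPM to 73.1 and 74.1 TPM (0.85 ± 0.33, edgeR adjusted p = 0.15). The list of translation initiation and elongation factors had a median 0.22 and 0.16 above all members. Of its 56 members, Eif2a was called higher (1.79%, beside 1.33% over all members). Eef1e1, listed under its elongation factor name, and Eif2s3x were called lower (3.57%, beside 4.76%). Nucleolar ribosome biogenesis factors had a median 0.16 and 0.19 above. Of their 98 members, 6 were called higher (6.12%, beside 1.33% over all members) and 3 lower (3.06%, beside 4.76%). The higher ones were Gnl3 (1.98), Wdr75 (1.95), the pseudouridine synthase Dkc1 (1.54), Utp14a (1.49), Brix1 (1.35) and Wdr43 (1.18). The lower ones were Gnl3l, Nip7 and Rrs1, with fitted log2 ratios of -1.04, -0.94 and -0.87. Nop58, a core box C/D protein gene, had the largest ratio of that list without being called (17.1 and 15.5 TPM against 97.2 and 95.1 TPM; 2.41 ± 0.77, edgeR adjusted p = 0.089).

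DNA replication genes (51 members) lay 0.17 and 0.18 above all members, with 40 above input in both pairs. Orc6, an origin recognition subunit, and Wdhd1, a replisome scaffold, were called higher at 1.04 and 1.02, and Rpa3 and Rrm2 lower at -0.91 and -0.51. Each direction held 3.92% of the list, beside 1.33% higher and 4.76% lower over all members. Histone lysine demethylases lay 0.33 and 0.29 above (11 members, 7 above input in both pairs), cytosolic chaperones 0.25 and 0.23 above (25 members) and glycolytic enzymes 0.21 and 0.16 above (17 members). No member of these 3 lists was called. Polycomb subunits lay 0.01 and 0.10 above all members, BAF and NuRD subunits 0.02 and 0.01, proteasome subunits 0.04 and 0.01, and Zfp zinc finger genes 0.02 and 0.08. Psmd1, of the proteasome's regulatory particle, was called higher at 1.59 (2.70% of the proteasome list, beside 1.33% over all members). The 14 extracellular matrix genes differed from all members by -0.03 and 0.19. Lamb1, a laminin chain, was called higher at 1.99 and Sparc lower at -0.81. Each was 7.14% of that list, beside 1.33% higher and 4.76% lower over all members. Of 106 Zfp genes, 4 were called higher (3.77%, beside 1.33% over all members), led by Zfp277 at 2.26, and 3 lower (2.83%, beside 4.76%).

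The lists of mitochondrial subunits had medians below that of all members, with few calls. The median of oxidative phosphorylation subunits differed from that of all members by -0.22 and -0.30. Of 76, 59 were below input in both pairs and 14 above, and 2, Ndufc1 and Sdhd, were called lower at -0.85 and -0.59 (2.63%, beside 4.76% over all members). Mitochondrial ribosomal proteins differed by -0.06 and -0.12, with 37 of 76 below input in both pairs and 31 above. Of these 76, 4 were called lower (5.26%), led by Mrps2 (103 and 100.0 TPM against 55.4 and 51.8 TPM; -1.06 ± 0.12, edgeR adjusted p = 0.014). Solute carriers differed by -0.08 and -0.14, with 7 of 108 called lower and none higher (6.48%, beside 4.76% over all members). ER translocation and folding genes differed by -0.12 and -0.24. Of their 37 members Ssr3 and Tram1, which act at the translocon, and Spcs3, of the signal peptidase, were called lower at -1.04, -0.70 and -0.56. These 3 were 8.11% of the list, beside 4.76% over all members, and none was called higher. The list's median input was 138 and 121 TPM, in the range of input where 7.64% were called lower and 0.18% higher.

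Splicing factor mRNAs differed by -0.13 and -0.19, and 8 of 81 were called lower (9.88%, beside 4.76% over all members) with none higher. Their median input was 141 and 122 TPM, in the range of input where 7.64% were called lower and 0.18% higher. Among those called were 4 SR proteins, which bind exonic splicing enhancers: Srsf1 (216 and 184 TPM in the inputs, 125 and 107 TPM in the IPs), Srsf6, Srsf3 and Srsf2 had fitted log2 ratios of -0.94, -0.82, -0.80 and -0.71. The others were Snrpf, Hnrnpf, Sf3a2 and Hnrnpab, at -1.01, -0.99, -0.80 and -0.76. In the mRNA decay list, whose median was near that of all members (-0.03 and 0.07), the deadenylation adaptors Tob1 and Tob2, the decapping cofactor Patl1 and the AU-rich element binder Zfp36l2 were called lower, at -0.83, -0.60, -0.67 and -0.53. These 4 of 47 members were 8.51%, beside 4.76% over all members, and none was called higher.

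Core pluripotency factors differed by -0.14 in both pairs. Of 24 members, 16 were below input in both pairs and 5 above. Called lower were 3 (12.5%, beside 4.76% over all members), with none higher (beside 1.33%). The list's median input was 116 TPM in both pairs, in the range of input where 7.64% were called lower and 0.18% higher. Nanog, a homeobox factor of the naive network, was at 235 and 235 TPM in the inputs and at 145 and 155 TPM in the IPs (-0.80 ± 0.16, edgeR adjusted p = 0.023). Dppa2 and Klf5 had fitted log2 ratios of -0.74 and -0.64. Pou5f1, the factor Oct4, was at 2358 and 2450 TPM against 2284 and 2405 TPM (-0.18 ± 0.16, edgeR adjusted p = 0.56). Klf4 had the highest ratio of the list, from 38.3 and 34.2 TPM to 47.2 and 51.6 TPM, and was not called.

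**Figure D3:**
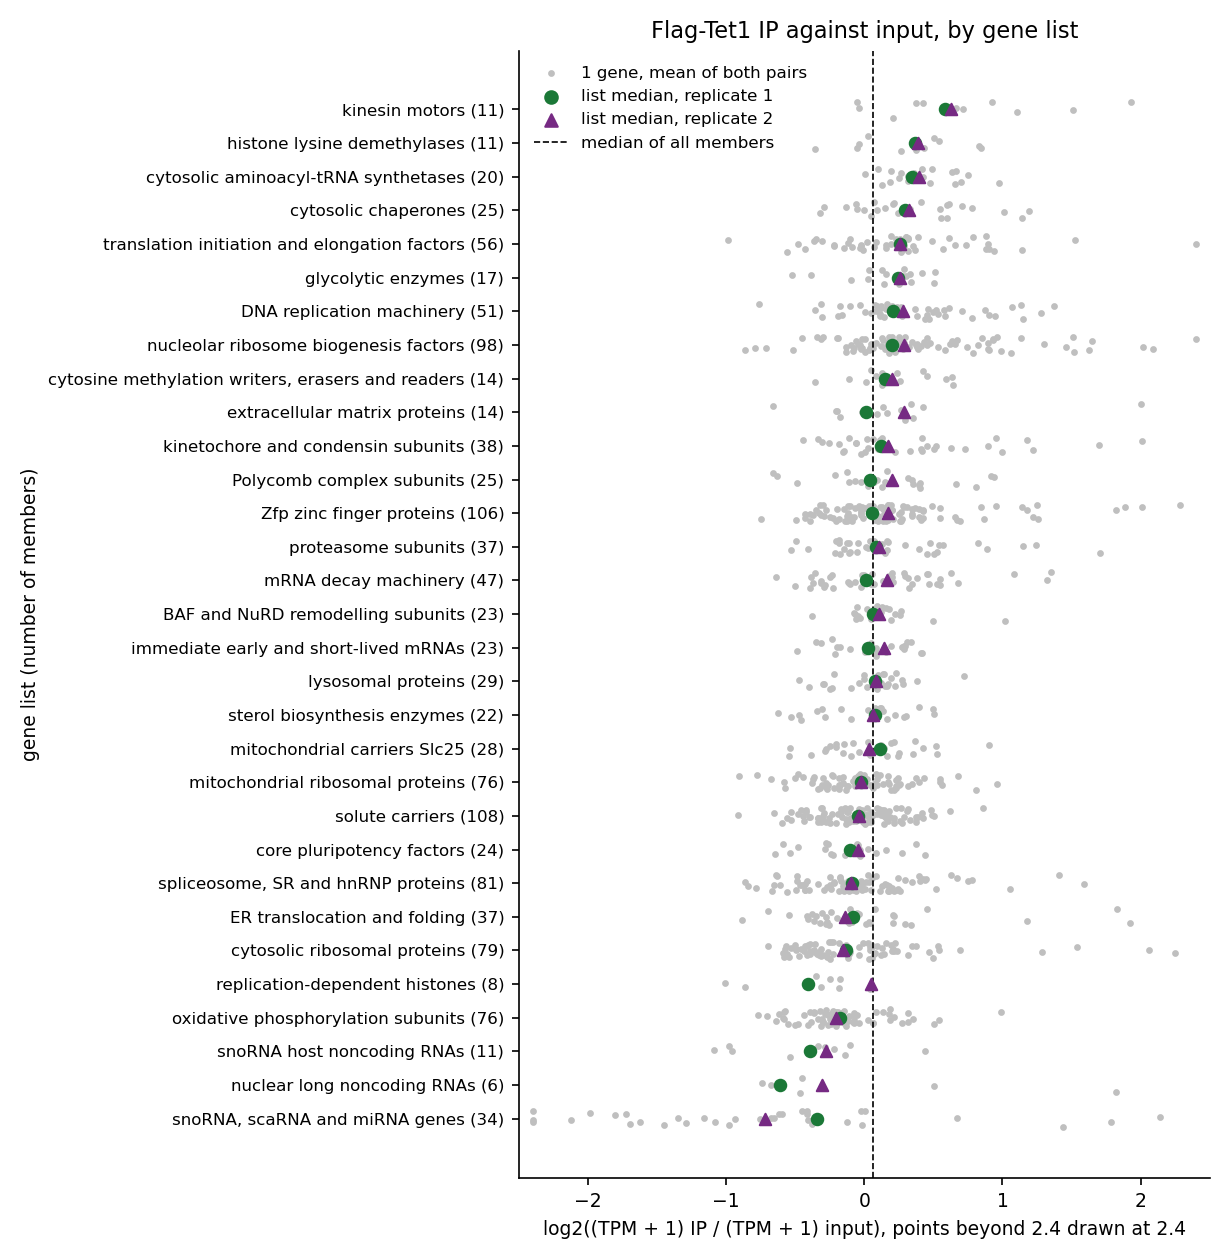
Each row is 1 of the 31 gene lists with its number of members; grey points are genes (mean log2((TPM + 1) IP / (TPM + 1) input) of both pairs), and the circle and triangle are the list's median in replicates 1 and 2. Kinesins lie highest and small noncoding RNA genes and nuclear noncoding RNAs lowest, and several lists hold single genes far from their median.

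The lists of noncoding RNAs had the lowest medians. Since the inputs are total RNA and the IPs came from cytoplasmic extract, the cell fraction cannot be told apart from the IP in these classes either. Host RNAs of small nucleolar RNAs differed from all members by -0.43 and -0.38. Of 11, 9 were below input in both pairs, and Snhg3 and Snhg4 were called lower, both at -1.13 (18.2%, beside 4.76% over all members). Snhg3 was at 228 and 203 TPM in the inputs and at 119 and 99.1 TPM in the IPs. The nuclear long noncoding RNAs differed by -0.65 and -0.41 but held a gene in each direction. Neat1, the scaffold RNA of paraspeckles, was at 74.0 and 62.0 TPM against 40.8 and 43.5 TPM (-0.83 ± 0.48, edgeR adjusted p = 0.33), whereas Tug1 (chr11:3539797-3548815, minus strand) was called higher, from 6.59 and 4.91 TPM to 23.1 and 22.2 TPM (1.92 ± 0.47, edgeR adjusted p = 0.043). Both IPs lay below both inputs for Neat1 and above them for Tug1. The 6 members of this list are few, and 4 were below input in both pairs.

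Small nucleolar, Cajal body and micro RNA genes (34 members) differed by -0.38 and -0.82, but only 9 were tested, and their median effective length was 33.9 bases. Such genes are listed at 0 in some libraries: Mir1982 was at 9.46 and 9.61 TPM in the inputs and at 0 in both IPs, and Snord87 at 18.9 and 0 TPM in the inputs and at 19.1 and 18.2 TPM in the IPs. Both had an effective length of 6.41 bases, and neither was tested. Only Snora78 and Mir17hg of this list were called (22.2% of the 9 tested, beside 4.76% over all members), and the latter is the long host RNA. Replication-dependent histone genes, whose mRNAs lack poly(A) tails, differed by -0.45 and -0.05. Only 8 of 68 passed the 5 TPM limit and none was called. The labels give the RNA as polyA RNA, and the part of that selection in the values of these classes was not tested.

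Coding length moved with the ratio, whereas base composition of the coding sequence moved little with it over all genes. Among the 7966 members with a coding sequence the median ratio ran from -0.13 in both pairs in the shortest quintile (1 in 5 of these genes, 114 to 672 bases) to 0.18 and 0.32 in the longest (2190 bases and over). Spearman's rho between coding length and ratio over these genes was 0.32 and 0.41, and for the shares of A, C, G and T it lay between -0.09 and 0.10 in both pairs. Input level, by which members were chosen, moved with length too: its median was 54.9 TPM in the shortest quintile and 15.1 TPM in the longest. Spearman's rho between input level and ratio was -0.13 and -0.20 over all members, and whether length acts apart from input level was not tested. Genes were not independent replicates here, and all points share 4 libraries. Called lower were 8.59% of the shortest quintile and 0.82% of the longest, against 0.38% and 1.82% called higher. Length of the 3′ UTR moved less and the other way: the medians were 0.06 and 0.11 in the shortest quintile and -0.05 and 0.01 in the longest, with 2.38% and 7.66% called lower. Median coding length was 858 bases for the members called lower, 1598 for those called higher and 1247 for all.

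At least 2-fold enrichment sat almost wholly in one class of mRNA. Of the 194 such members with a coding sequence, 177 (91.2%) were in the quintile with the highest A content, between 28.9% and 47.1% A. From the lowest to the highest quintile of A content the share enriched at least 2-fold in both pairs was 0%, 0.063%, 0.38%, 0.63% and 11.1%. These quintiles were set after the values had been seen. The test called only 84 of all 204 members with at least 2-fold enrichment in both pairs. Of the 104 members called higher that have a coding sequence, 78 (75%) were in the same quintile, whereas its share of members called lower, 4.14%, was within the range of the other quintiles, 3.76% to 5.34%. The centre of the quintile moved less, with medians of 0.16 and 0.30, against -0.02 to 0.06 and 0.04 to 0.11 for the other 4.

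The pattern was seen at every coding length. Within the quintiles of coding length, from shortest to longest, the share enriched at least 2-fold was 2.64%, 10.2%, 12.3%, 16.2% and 17.9% for mRNAs of the A-richest quintile, and 0.085%, 0.16%, 0.15%, 0.23% and 0.70% for the others. Low C and low G content went with it too, at 9.72% in the lowest quintile of C and 0.13% in the highest, and at 7.09% in the lowest quintile of G and 0.44% in the highest. Quintiles of T ran from 1.00% to 4.27%. A run of 8 or more A in the coding sequence, which 191 members had, gave 11.0%, and members without one 2.23%. A predicted membrane-spanning stretch, a run of 19 residues with a mean hydropathy of at least 1.6, was a feature of 2425 members. Of these, 1.20% were enriched at least 2-fold, against 2.98% of the 5541 without one. Among listed genes with a coding sequence, the A-richest quintile held 6 of 11 kinesins, 15 of 38 kinetochore and condensin genes and 41 of 97 nucleolar factors. It also held 31 of 77 splicing factors, whose list lay below all members. The part of A content and coding length in the values of the lists was not tested.

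**Figure D4:**
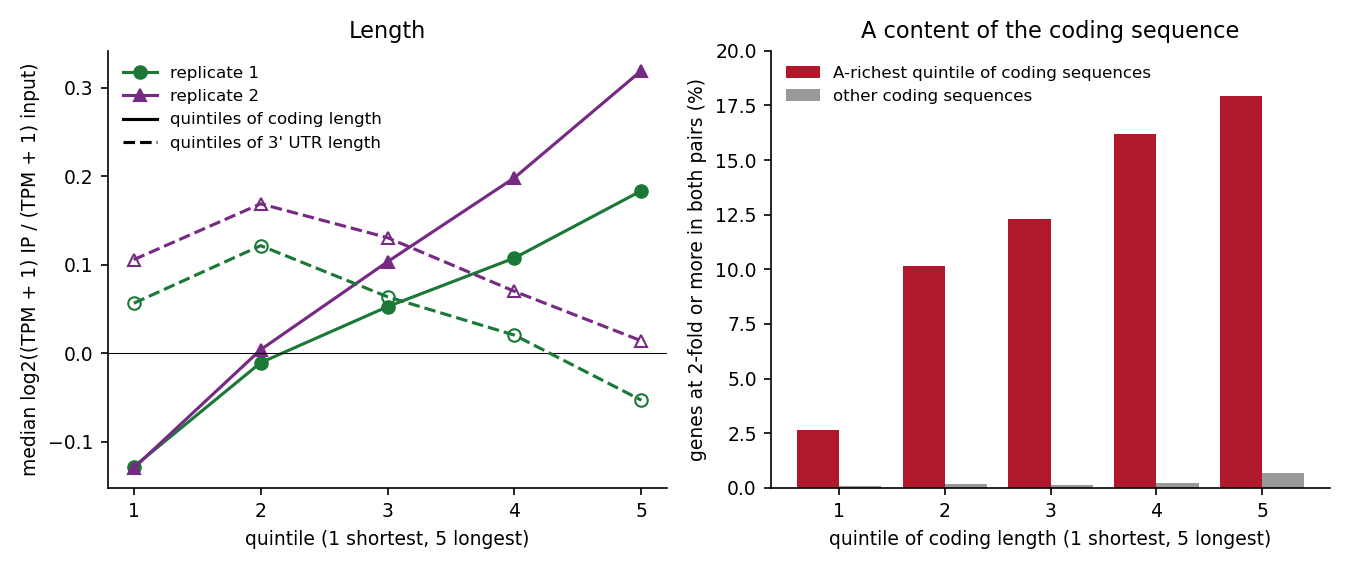
Left, the median log2((TPM + 1) IP / (TPM + 1) input) of each quintile of coding length (solid) and 3′ UTR length (dashed) in both pairs; right, bars from 0 with the percent of genes at 2-fold or more in both pairs, in each quintile of coding length, for the A-richest quintile of coding sequences and for the others. The solid lines run from -0.13 to 0.18 and 0.32, and the grey bars stay at or below 0.70%.

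The 204 members enriched at least 2-fold had a lower input level than members overall. Their median was 11.0 TPM in the input and 38.5 TPM in the IP, against 25.05 and 27.5 TPM over all members. The members called lower had medians of 43.5 TPM in the input and 28.5 TPM in the IP. Input enters the ratio, so these levels are a description. From the lowest to the highest quintile of input level the share enriched at least 2-fold went from 5.31% to 0.72%.

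The cytosolic ribosomal protein mRNAs, whose products are needed in equal number in each ribosome, held a few such genes. The 79 members had a median of 3866 and 3851 TPM in the inputs and of 3560 and 3529 TPM in the IPs, and differed from all members by -0.17 and -0.25. Of these, 44 were below input in both pairs and 30 above it. Called higher were 2 (2.53%, beside 1.33% over all members), and none was called lower (beside 4.76%). Rpl4 (large subunit) was at 741 and 575 TPM in the inputs and at 2934 and 3280 TPM in the IPs (2.10 ± 0.32, edgeR adjusted p = 0.019). It stood at 19.2% and 14.9% of the list's median in the inputs and at 82.4% and 92.9% of it in the IPs. Rpl5, not called, went from 20.3% and 16.6% of the list's median to 48.2% and 49.2% (1.14 ± 0.56, edgeR adjusted p = 0.25).

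Rpl7 was also called higher, from 2970 and 2656 TPM to 13752 and 10007 TPM (1.91 ± 0.41, edgeR adjusted p = 0.031), and Rps3a was not (2372 and 1913 TPM against 6614 and 5812 TPM; edgeR adjusted p = 0.092). For Rpl7 the IPs were above the list's median, at 386% and 284% of it. Of the 30 ribosomal protein genes in the A-richest quintile of coding sequences, 3 were enriched at least 2-fold and 14 had a mean ratio above 0, and their median was -0.06. Of the 47 in the other quintiles none was enriched at least 2-fold, and their median was -0.26. Rpl7 had no coding sequence matched and is in neither count. Ribosomal protein genes have many processed copies, and reads shared with those copies make their levels uncertain. Rpl5, Rpl7 and Rps3a were named after their values had been seen.

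**Figure D5:**
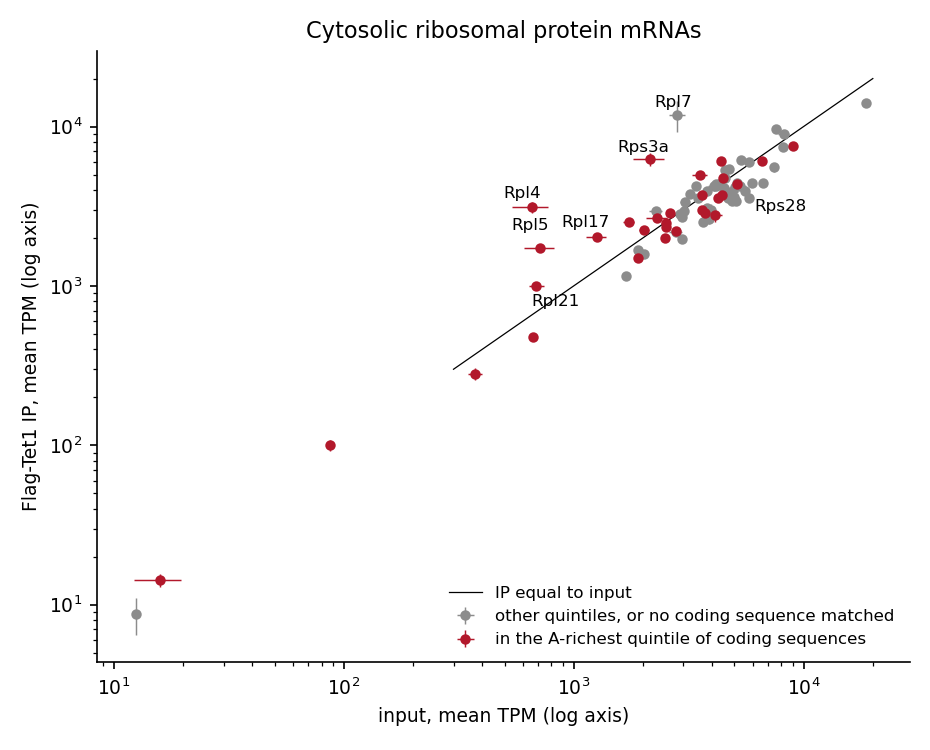
Mean TPM in the input (x, log axis) and in the Flag-Tet1 IP (y, log axis) of the 79 cytosolic ribosomal protein genes, with bars of 1 SD over 2 replicates; red marks the A-richest quintile of coding sequences. Most points follow the line of equal level, and Rpl4, Rpl5, Rpl7 and Rps3a lie above it.

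Of the other 8 pairs of IP and input, 7 had a larger share of genes at 2-fold or more in the A-richest quintile than in the rest, and Tet2ΔRBD pair 4 had a smaller one. In the A-richest quintile the share of genes at 2-fold or more was 11.1% and 18.0% in the Tet1 pairs, 23.5%, 30.6%, 6.59% and 6.53% in Tet2 pairs 1 to 4, and 23.7%, 28.9%, 7.72% and 0.63% in Tet2ΔRBD pairs 1 to 4. The Tet2ΔRBD pairs thus span the Tet1 values on both sides. In the remaining quintiles the share was at most 0.63% in the Tet1 pairs, lay between 1.10% and 14.1% in the other 8, and was 2.01% in Tet2ΔRBD pair 4. Of the genes with a coding sequence at 2-fold or more, 487 of 1387 were in the A-richest quintile in Tet2 pair 2 and 10 of 138 in Tet2ΔRBD pair 4. The median of the longest coding quintile was above that of the shortest in all 10 pairs. No gene differed between Tet1 and Tet2 in edgeR's test of the difference between the 2 IP effects (0 of 13710, smallest adjusted p = 0.59), while 517 genes had an unadjusted p under 0.05. DESeq2 called 13 genes, and limma on log2(TPM + 1) and log2(TPM + 0.1) called 6 and 1. With only the Tet1 libraries and the Tet2 and Tet2ΔRBD replicates 3 and 4, edgeR called 314 genes, on 3 residual degrees of freedom.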

How the data were processed

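RIP-Seq of Flag-Tet1 ESCs was analysed (2 anti-Flag IPs from cytoplasmic extract, 2 inputs of total RNA). The authors removed rRNA and tRNA reads with Bowtie2, trimmed with Trimmomatic and quantified with RSEM on mm9 with RefSeq transcripts. They deposited, per gene, expected counts, TPM to which 1 had been added, and FPKM values, which were not used. Here 1 was subtracted from the TPM column. Expected counts were rounded and tested with edgeR 4.0.16 in R 4.3.3 (TMM, quasi-likelihood, all 20 libraries, a block per pair and an IP effect per line, genes at 1 CPM in at least 2 libraries, 7 residual degrees of freedom). An SE is the fitted log2 ratio divided by the square root of F. The replicates of a group differed by more than sampling noise (mean chi-square per gene 7.92 for IPs and 8.04 for inputs), and their deviations in IP and input correlated at 0.18. Coding sequences were the longest per symbol in GENCODE vM1. Genes named were the 10 highest and 10 lowest called with 1 sign in both pairs, the Tet genes and each list's extremes, while other called list members were named after their values were seen. Genes and lists were chosen with earlier results of these data known. The scripts were tested on simulated data. Alternatives were DESeq2 1.42.0, limma 3.58.1, other pseudocounts, filters and scaling, fits without the block, and libraries left out. Depth was 22539260 to 25518994 expected counts per Tet1 library.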

Additional observations from a re-analysis of the deposited data

How the results depend on the processing

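The counts of called genes moved with the fit, and all 39 called genes named by rule kept their direction in all 17 alternatives. Every alternative used at least 1 of the same Tet1 pairs, and these genes had 1 sign in both pairs. The kept direction is therefore no added support. Past the threshold were 31 of them without Tet2 pair 3 or 4, 32 without Tet2ΔRBD pair 3, 38 without Tet2 pair 1, 35 and 36 with limma on log2(TPM + 1) and log2(TPM + 0.1), 39 in the other fits with the block and both Tet1 pairs, and 0 in the rest. Higher and lower calls were 373 and 436 over all genes tested and 111 and 397 among members. With DESeq2 they were 841 and 737 over all genes and 275 and 684 among members, and DESeq2 called 13 genes for the difference between Tet1 and Tet2. With limma on log2(TPM + 1), lower calls were 144 and, among members, 138, with 186 members higher and 6 genes differing between Tet1 and Tet2. On log2(TPM + 0.1), lower calls were 143 and 132, with 1 gene differing. Without the block for pairs no gene was called in either direction, 0 over all genes and 0 among members; the pairing comes from the replicate numbers of the labels. With only the Tet1 libraries and the Tet2 and Tet2ΔRBD replicates 3 and 4, read as 1 numbering set, calls were 2623 and 3637 over all genes and 1450 and 3109 among members, with 314 genes differing; this fit had 3 residual degrees of freedom. With the 4 Tet1 libraries alone they were 3602 and 3383 over all genes and 2212 and 2870 among members, on 1 residual degree of freedom. Leaving out 1 pair at a time gave 0 to 729 higher and 0 to 776 lower calls over all genes, and 0 to 270 higher and 0 to 702 lower among members. The 0 came from leaving out either Tet1 pair, where the lone pair is assumed to vary like the other lines; without Tet2 pair 3, 47 members were higher and 170 lower, without Tet2 pair 4, 47 and 218, and without Tet2ΔRBD pair 3, 49 and 203, while without Tet2ΔRBD pair 2, 270 were higher and 702 lower. The causes of these shifts were not tested, apart from the smaller number of libraries that some fits use.

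Of the values without a test, the count of members at 2-fold or more was 204, and became 447 with a limit of 1 TPM, 112 with a limit of 10 TPM, both of which change how many genes are kept, and 358 with the limit on the mean of IP and input, which also keeps genes through a high IP level; the share above input in both pairs was then 53.2%. From 1 pair alone it was 214 to 348. With TMM-scaled CPM the median log2 ratio of members was -0.0735 and the share above input in both pairs 34.9%, and without pairing that share was 57.7%; from 1 pair alone it was 54.7% to 60.5%. The share of these members in the A-richest quintile was 91.7% with TMM-scaled CPM, 90.5% without pairing and 87.2% to 87.7% from 1 pair. The rule of 2-fold in both pairs and the quintiles of coding length and A content were chosen after seeing the data.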
